A study of Mus musculus with 24 samples.

Results

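The dorsal root ganglion (DRG) was profiled on 6 of the 24 arrays of the series, those that carry P4_DRG in their title. They hold RNA from the DRG of SMA mice on 3 arrays and of wild-type (WT) mice on 3 arrays, all of strain FVB and all at postnatal day 4. The design text calls the 3 arrays of a group biological replicates. SMA is read as spinal muscular atrophy. The sources used here do not give the allele of the SMA mice, any transgene that either group carries, or how the ganglia were collected. Per the labels, RNA isolation used a kit made for small amounts, and the cDNA was amplified and hybridised in 1 colour (Cy3) to an Illumina mouse bead array.

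Spinal muscular atrophy follows the loss of SMN, the survival motor neuron protein, which with the Gemin proteins loads Sm proteins onto the small nuclear RNAs of the spliceosome. The DRG holds the cell bodies of sensory neurons, wrapped by satellite glia, together with Schwann cells, fibroblasts and vessels. Its neurons fall into classes with distinct genes: proprioceptors, which carry muscle stretch and contact motor neurons directly, mechanoreceptors of touch, and peptidergic and nonpeptidergic neurons of heat, pain and itch. In mouse models of SMA, proprioceptive synapses on motor neurons are known to be lost early.

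Levels are given as normalized log2 signals, and a difference is the mean of the 3 SMA arrays minus that of the 3 WT arrays on that log2 scale. Genes entered the test when 1 group or both had a detection p under 0.05 on each of its 3 arrays, and a gene passed where limma's adjusted p, over all genes tested, was under 0.05. How the ganglia were collected is not given, and fewer cells of a type and less RNA per cell cannot be told apart.

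The arrays had limits that touch every result. The 3 WT arrays lay on sections A to C of 1 chip and the 3 SMA arrays on sections D to F, so position and genotype cannot be told apart. The summed signal was 7968472, 7898893 and 8860786 on the SMA arrays and 13765081, 9739950 and 9597340 on the WT arrays, without overlap. Between 45.8 and 49.7% of the probes were above background on the SMA arrays and between 43.8 and 49.7% on the WT arrays. WT replicate 1 stood apart: it correlated at 0.912 to 0.929 with the other arrays, while those correlated at 0.961 to 0.983 with each other. Where leaving it out moved a list's median by over 1.5 times or across 0, both medians are given wherever they differ at 2 decimals.

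Smn1, which encodes SMN, was the 1 gene that passed among the 9964 tested. Its level was 4.56, 4.44 and 4.49 on the SMA arrays and 9.42, 9.96 and 9.91 on the WT arrays. It was above background on 0 of 3 SMA arrays and on 3 of 3 WT arrays, so the groups lay far apart. The measured difference was -5.27 (95% interval -5.94 to -4.59; adjusted p = 9.18e-05), and Smn1 was at least 26.4-fold lower in SMA DRG, a bound set against the dimmest signal above background on each SMA array. On the scale of the normalized table that the authors deposited, Smn1 differed by -2.12. The array measured Smn1 with 1 probe, whose place in the gene the sources used here do not give.

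The label of the tissue was checked against the genes of sensory neurons. All 15 genes of the general sensory neuron list that the array names were above background on at least 1 array, and 14 of them were tested. They include Isl1 and Pou4f1, transcription factors of sensory neurons, Prph, the intermediate filament peripherin, Avil, the actin-binding protein advillin, and Slc17a6, the vesicular glutamate transporter VGLUT2. Isl1 stood at 10.11, 10.04 and 9.86 on the SMA arrays and 10.51, 10.23 and 9.92 on the WT arrays. Slc17a6 stood at 11.47, 11.52 and 11.43 on the SMA arrays and 11.84, 11.48 and 11.46 on the WT arrays. Both sets overlapped, and every one of the 6 arrays held RNA of sensory neurons. Of 9 central glia genes, Olig2 and Mog of oligodendrocytes were above background on 0 arrays, Gfap of astrocytes on 1, Mobp on 2 and Olig1 on 3, whereas Slc1a2 and Aqp4 were above background on 5 and Sox2 and Cspg5 on all 6. Of 10 motor neuron genes, Mnx1, Slc18a3, Slc5a7 and Lhx4 were above background on 0 arrays, Mmp9 on 2 and Lhx3 on 4. Foxp1, Isl2 and Prph were above background on all 6, and so was Chat, the enzyme that makes acetylcholine, at 5.41, 6.12 and 5.27 on the SMA arrays and 5.67, 5.46 and 5.15 on the WT arrays. Of 9 skeletal muscle genes, Acta1, Tnnt3 and Tnnc2 were above background on 0 arrays, Ckm and Tnni2 on 1, Actn2 on 3 and Mylpf on 4, while Des and Myh8 were above background on all 6. Myh8, a myosin of young muscle, stood at 7.15, 7.35 and 7.66 on the SMA arrays and 7.58, 7.11 and 7.31 on the WT arrays. The part of muscle and central glia RNA in any difference was not tested.

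Apart from Smn1, no gene passed between SMA and WT ganglia. Smn1 made up 0.01% of the genes tested, and the next smallest adjusted p was 0.985. At an unadjusted p under 0.05 (limma) there were 335 genes, 3.36% of those tested. All 3 SMA arrays lay above all 3 WT arrays in 371 genes (3.72%), and all 3 lay below in 495 genes (4.97%). The median difference of all genes was -0.02, with 4614 genes above 0 and 5350 below. A difference of 2-fold or more was measured for 63 genes. The 95% interval of a gene reached a median of 0.67 to either side of its difference. In 6317 genes (63.4%) the whole interval lay within 2-fold in either direction. A p that misses the threshold does not show that a gene's level was the same.

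**Figure D1:**
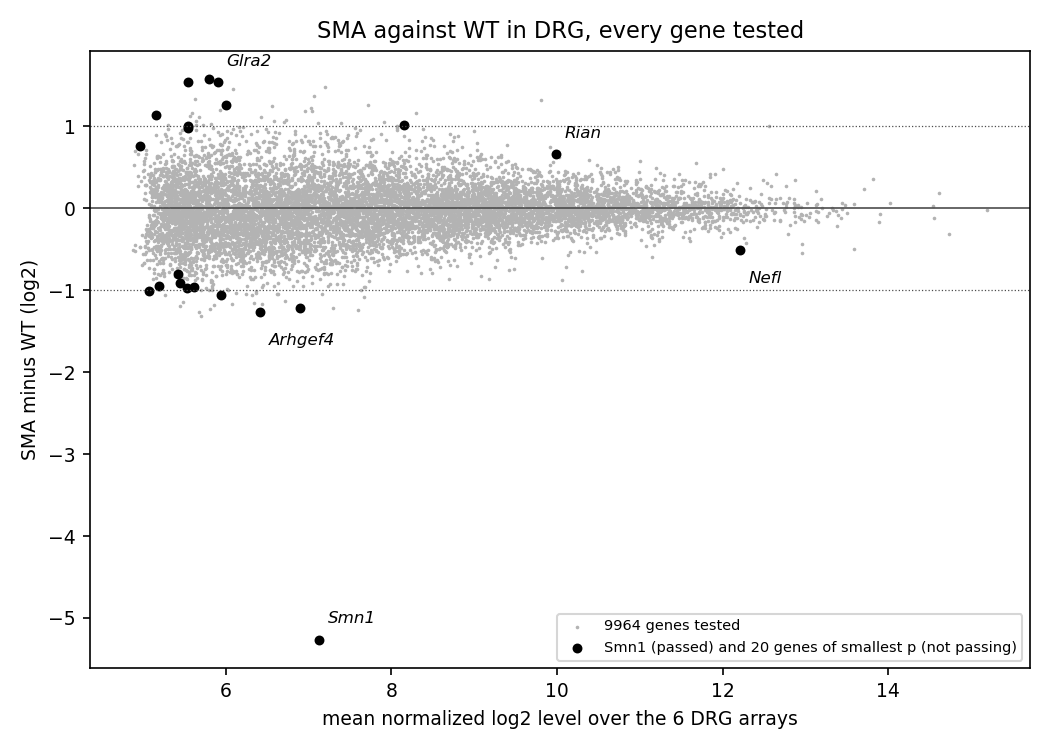
Each point is 1 of the 9964 genes tested, with its mean normalized log2 level over the 6 DRG arrays on the x axis and the log2 difference, SMA minus WT, on the y axis; dotted lines mark 2-fold. Black points are Smn1, which passed at -5.27, and the 20 genes of smallest unadjusted p without overlap, which did not pass and lie between -1.27 and 1.58.

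Among genes higher on every SMA array, the smallest unadjusted p belonged to Glra2, the alpha-2 subunit of the glycine receptor. Its level was 6.54, 6.98 and 6.51 on the SMA arrays and 5.78, 4.85 and 4.79 on the WT arrays, a difference of 1.54 (adjusted p = 0.985). It was above background on 3 SMA arrays and 1 WT array. With weights estimated for each array, Glra2 passed as well as Smn1 (adjusted p = 0.0318), and that fit gave WT replicate 1 a weight of 0.233. Syt12, a synaptotagmin of synaptic vesicles, stood at 6.85, 6.66 and 6.39 on the SMA arrays and 4.99, 5.54 and 5.58 on the WT arrays. Dock6, an exchange factor for the GTPases Rac1 and Cdc42, stood at 8.53, 8.75 and 8.72 on the SMA arrays and 8.03, 7.29 and 7.61 on the WT arrays, a difference of 1.02. Rian, an imprinted long noncoding RNA, stood at 10.36, 10.47 and 10.12 on the SMA arrays and 9.75, 9.44 and 9.78 on the WT arrays. Its difference of 0.66 (95% interval 0.28 to 1.04) also had an adjusted p of 0.985. Ada, which encodes adenosine deaminase, differed by 0.98, the protease gene Prss48 by 1.58 and Mtcp1 by 1.00. Of the WT arrays, Prss48 was above background on 1 and Syt12, Ada and Mtcp1 on 2. The remaining 3 of these 10 genes, 4930578I06Rik, Fancd2os and Metrnl, were above background on all SMA arrays and no WT array, and their bounds were at least 1.61-fold, 2.42-fold and 1.24-fold higher. None of the 10 passed.

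Nefl, which encodes the light subunit of axonal neurofilaments, was among the 10 genes of smallest p that were lower on every SMA array. Its level was 11.97, 11.87 and 12.03 on the SMA arrays and 12.75, 12.57 and 12.09 on the WT arrays. The SMA arrays lay close together, and WT replicate 3 lay just above the highest of them. The difference was -0.51 (95% interval -0.85 to -0.17; adjusted p = 0.985). Arl2, a small GTPase of tubulin folding, stood at 5.37, 5.58 and 5.29 on the SMA arrays and 6.80, 6.45 and 6.18 on the WT arrays. Arhgef4, a guanine nucleotide exchange factor, stood at 5.32, 6.11 and 5.92 on the SMA arrays and 7.35, 6.42 and 7.40 on the WT arrays. Ccdc166, a coiled-coil protein, differed by -1.21. Pigt, of the complex that attaches GPI anchors, differed by -0.98, Zgpat, a zinc-finger repressor, by -0.95 and Faap24, of the Fanconi anaemia core complex, by -0.80. The gene 2010320M18Rik differed by -0.92. Of the SMA arrays, 2010320M18Rik, Pigt and Faap24 were above background on 1 and Zgpat on 2. Trpm6, a magnesium channel, and Cep152, a protein of centriole duplication, were above background on no SMA array and were at least 1.45-fold and 1.55-fold lower. None of these 10 passed.

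**Figure D2:**
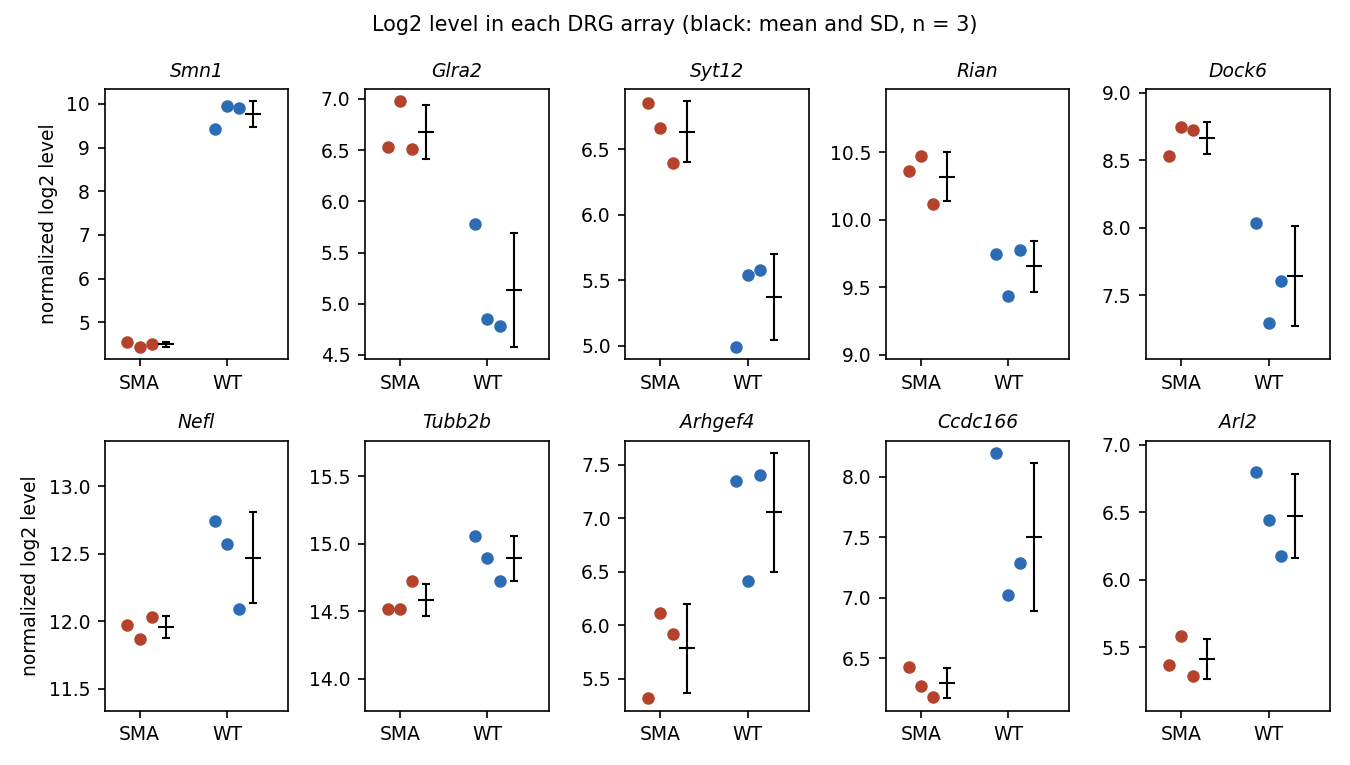
Each panel plots the normalized log2 level of 1 gene on the 3 SMA arrays (red, left) and the 3 WT arrays (blue, right), with the mean and SD in black; each axis has its own range, of at least 2 log2 units. Only Smn1 passed, and of the genes shown Tubb2b had its highest SMA array and its lowest WT array both at 14.72.

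Proprioceptor genes had the lowest median of the 41 lists examined, with all 6 arrays and the normalization and probes used here, and none of them passed. Of the 16 that the array names, 13 were tested; 5 had a difference above 0 and 8 below 0, and the median was -0.40 against -0.02 over all genes. The proprioceptor median was the value of Pvalb, and the next gene above it was Etv1 at -0.12. Red blood cell genes had a median close to it, at -0.38. In 3 of the 13 proprioceptor genes every SMA array lay below every WT array, against 4.97% of all genes. In 0 of the 13 every SMA array lay above, against 3.72%. The mean deviation of the 13 genes from their 6-array mean was -0.207, -0.318 and 0.0278 on the SMA arrays and 0.356, 0.199 and -0.0579 on the WT arrays, so as a group they overlapped. Without WT replicate 1 the median was -0.26 with -0.00 over all genes, and replication-dependent histones then lay lower, at -0.39. With each gene's probe chosen over all 24 arrays the proprioceptor median was -0.12. On the deposited normalized scale, where Smn1 differed by -2.12, it was -0.14.

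The 3 genes without overlap were Pvalb, Ntrk3 and Vstm2b. Pvalb encodes parvalbumin, a calcium-binding protein of proprioceptors, and stood at 11.05, 10.97 and 11.06 on the SMA arrays and 11.59, 11.59 and 11.11 on the WT arrays. The SMA arrays lay close together, and WT replicate 3 lay just above them. The difference was -0.40 (95% interval -0.73 to -0.08; adjusted p = 0.985). Ntrk3, the receptor TrkC for neurotrophin-3 that proprioceptors need to survive, stood at 6.88, 7.22 and 7.34 on the SMA arrays and 8.00, 7.84 and 7.84 on the WT arrays, a difference of -0.75. Another Ntrk3 probe gave 0.18, so the direction depends on the probe. Vstm2b, an immunoglobulin-domain membrane protein, stood at 6.26, 5.43 and 5.68 on the SMA arrays and 7.03, 6.82 and 6.70 on the WT arrays, a difference of -1.06 (95% interval -1.79 to -0.34).

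The other proprioceptor genes overlapped between the groups. Calb2, which encodes calretinin, stood at 4.60, 5.44 and 4.70 on the SMA arrays and 7.01, 5.86 and 5.28 on the WT arrays, and was above background on 1 SMA array and 3 WT arrays. Slc17a7, the vesicular glutamate transporter VGLUT1 of proprioceptive terminals, stood at 5.03, 5.18 and 5.52 on the SMA arrays and 6.74, 5.93 and 5.03 on the WT arrays. It was above background on 2 SMA arrays and 3 WT arrays. The highest values of both genes were on WT replicate 1. The orphan nuclear receptor gene Esrrg differed by -0.57 and Asic1, an acid-sensing channel, by -0.46. Etv1, the ETS transcription factor of proprioceptors, stood at 10.81, 10.86 and 11.26 on the SMA arrays and 10.81, 11.21 and 11.26 on the WT arrays. Its difference of -0.12 had an interval of -0.49 to 0.25, which lies within 2-fold. Cacna1h, a T-type calcium channel, differed by 0.03, Tafa1 by 0.15, the potassium channel gene Kcnc1 by 0.20, Chodl by 0.24 and Heg1 by 0.24, the last with an interval of -1.44 to 1.93. Runx3, the transcription factor that sets the proprioceptor fate, was above background on none of the 6 arrays.

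**Figure D3:**
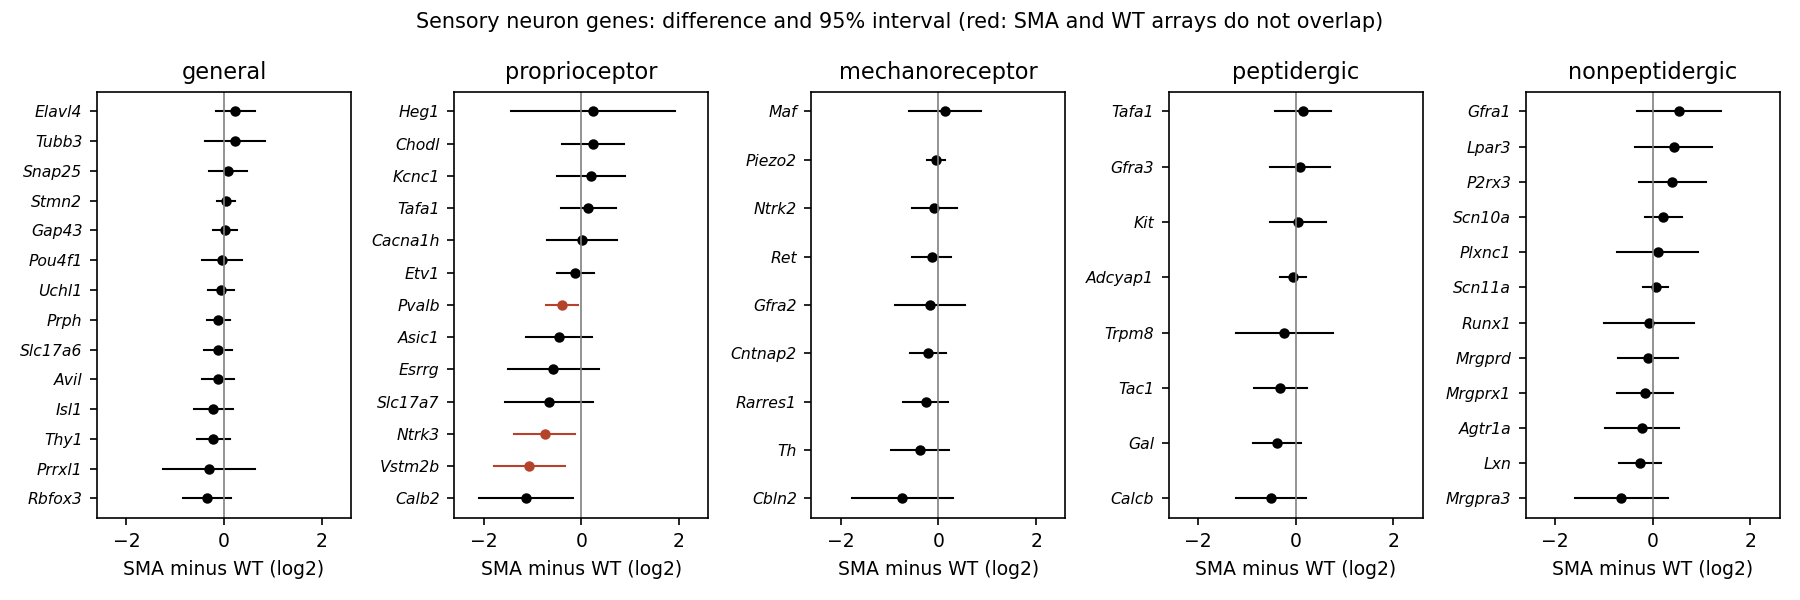
Each row is 1 tested gene of a sensory neuron list, with its log2 difference, SMA minus WT, as a point and the 95% interval as a line; red marks genes whose SMA and WT arrays do not overlap. The 3 red genes are Pvalb, Ntrk3 and Vstm2b in the proprioceptor panel, and no gene shown passed.

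Genes of the other sensory classes had medians nearer to 0, none passed, and in none did the groups lie apart. Among all genes the groups lay apart in 3.72% with SMA higher and in 4.97% with SMA lower. The general sensory neuron list had 5 genes above 0 and 9 below, a median of -0.09 (-0.02 without WT replicate 1) and differences between -0.35 for the splicing factor gene Rbfox3 and 0.23. In 13 of its 14 genes the whole interval was within 2-fold. Stmn2, which regulates microtubules in growing axons, differed by 0.03 (95% interval -0.15 to 0.22). Gap43, a growth cone protein, differed by 0.02 (95% interval -0.22 to 0.26), and Thy1 by -0.22.

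The mechanoreceptor list had 9 genes tested, 1 above 0 and 8 below, with a median of -0.18, or -0.06 without WT replicate 1. Cbln2, a synapse organiser, stood at 6.91, 7.45 and 7.25 on the SMA arrays and 9.09, 7.54 and 7.20 on the WT arrays, a difference of -0.74 in which WT replicate 1 was the highest array. Th, the dopamine-synthesis enzyme of low-threshold touch neurons, differed by -0.38 and Rarres1 by -0.26, with another Rarres1 probe at 0.43. The mean deviation of the 9 genes was -0.152, -0.0608 and -0.102 on the SMA arrays and 0.245, 0.00765 and 0.0619 on the WT arrays, without overlap. Ntrk2, the receptor TrkB for BDNF, differed by -0.08 and Ret, the signalling receptor for GDNF, by -0.14. Piezo2, the channel that transduces touch and stretch, differed by -0.04 (95% interval -0.23 to 0.14). The 5 other Piezo2 probes gave 0.15 to 1.23, opposite in sign.

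The peptidergic list of 8 tested genes had 3 above 0 and 5 below and a median of -0.15, or -0.08 without WT replicate 1. Calcb, a calcitonin gene-related peptide, stood at 8.07, 7.88 and 7.77 on the SMA arrays and 9.09, 8.11 and 8.02 on the WT arrays. Tac1, which encodes substance P, differed by -0.31 and the neuropeptide gene Gal by -0.38. Both Calcb and Tac1 were highest on WT replicate 1. The cold channel gene Trpm8 differed by -0.23, with an interval of -1.23 to 0.77. Adcyap1 differed by -0.06, and the 3 genes above 0 were Kit at 0.05, Gfra3 at 0.09 and Tafa1 at 0.15.

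The nonpeptidergic list of 12 tested genes had 6 above 0 and 6 below and a median of -0.01, or -0.03 without WT replicate 1. Scn10a, the sodium channel Nav1.8 of nociceptors, stood at 10.54, 10.63 and 10.21 on the SMA arrays and 10.17, 10.08 and 10.48 on the WT arrays, with overlap. Scn11a, the related channel Nav1.9, differed by 0.06 (95% interval -0.20 to 0.31). P2rx3, an ATP-gated channel, differed by 0.40, the itch receptor gene Mrgpra3 by -0.64 and Mrgprd, a receptor of skin nociceptors, by -0.09. Gfra1, a GDNF receptor, differed by 0.54 and Lxn by -0.26.

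Of 21 Schwann cell genes tested, 11 were above 0 and 10 below, with a median of 0.03, or 0.01 without WT replicate 1, and none passed. Pmp2, a fatty-acid-binding protein of myelin, stood at 7.76, 7.86 and 7.30 on the SMA arrays and 5.39, 7.27 and 6.57 on the WT arrays, a difference of 1.23. The groups did not overlap, with SMA replicate 3 just above WT replicate 2. Mbp, myelin basic protein, stood at 10.07, 9.72 and 10.12 on the SMA arrays and 9.62, 9.52 and 10.03 on the WT arrays, with overlap. Ngfr, the p75 neurotrophin receptor of both glia and neurons, differed by -0.24 and S100b, a calcium-binding protein of glia, by -0.53, each lower on every SMA array. The 15 satellite glia genes had a median of -0.04, or 0.11 without WT replicate 1. Sparcl1 differed by -0.47. Timp3 lay higher on every SMA array, by 0.13, and Apoe lower, by -0.20.

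Fibroblast genes had 2 of 8 above 0 and a median of -0.20, and vessel genes had 2 of 8 above 0 and a median of -0.24. As a list mean, both lay lower on every SMA array. The fibroblast genes deviated by -0.121, -0.295 and 0.063 on the SMA arrays and 0.12, 0.109 and 0.125 on the WT arrays. Vessel genes deviated by -0.0916, -0.129 and -0.112 on the SMA arrays and 0.261, 0.048 and 0.0237 on the WT arrays. Among the 41 lists, those of mechanoreceptors, extracellular matrix and, with Smn1 included, the SMN complex also lay lower on every SMA array. Receptors of transmitters lay higher, and the remaining lists overlapped. Of single genes, 4.97% lay lower and 3.72% higher on every SMA array. The margin was small for extracellular matrix, with the highest SMA array at 0.0292 and the lowest WT array at 0.03. For the receptors the lowest SMA array was at -0.00645 and the highest WT array at -0.0141. Ogn, a matrix proteoglycan of fibroblasts, stood at 7.10, 6.91 and 7.19 on the SMA arrays and 8.38, 7.52 and 7.54 on the WT arrays. Flt1, the VEGF receptor of endothelium, stood at 4.61, 4.94 and 4.99 on the SMA arrays and 6.39, 5.05 and 5.58 on the WT arrays. It was above background on 1 SMA array and 3 WT arrays. Of 6 immune genes tested, 2 were above 0, with a median of -0.14, or 0.04 without WT replicate 1; Lyz2 differed by -0.72, Ms4a3 by -0.89 and Mrc1 by 0.25. The 4 globin genes deviated from their 6-array mean by 0.232, 0.326 and -1.18 on the SMA arrays and by 1.16, 0.19 and -0.728 on the WT arrays. Their median difference was -0.38, and 0.12 without WT replicate 1. The array that stood apart in its correlations was thus also the highest in globin, immune, satellite glia and proprioceptor genes; the part of cell make-up in any difference above was not tested.

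**Figure D4:**
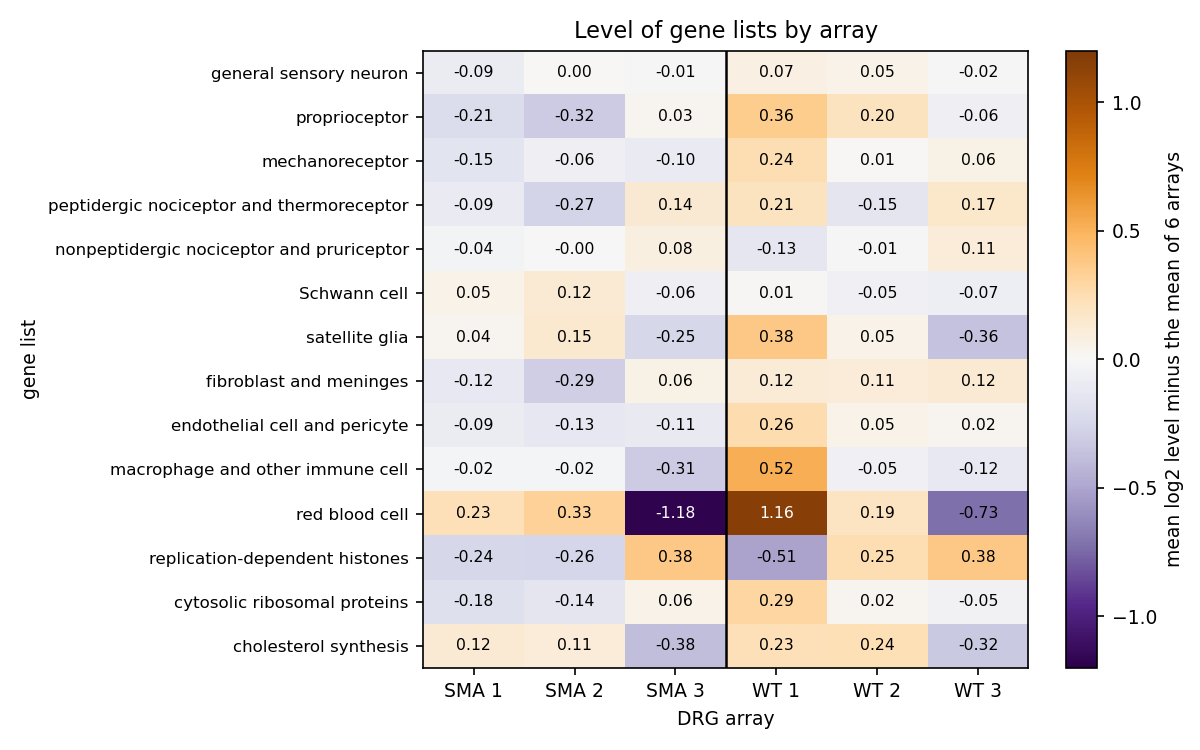
Each cell is the mean normalized log2 level of a list's tested genes on 1 array minus the mean over the 6 DRG arrays, with the SMA arrays left of the line and the WT arrays right. Red blood cell genes span -1.18 on SMA replicate 3 to 1.16 on WT replicate 1, and proprioceptor genes span -0.32 on SMA replicate 2 to 0.36 on WT replicate 1.

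None of the genes that work with Smn1 passed. Of the 28 other genes of the SMN complex and of snRNP assembly, 23 were tested; 10 were above 0 and 13 below, the median was -0.13, and 0 passed. In none of the 23 were the groups free of overlap. Over all genes, 3.72% lay higher and 4.97% lower on every SMA array. Gemin2, the SMN-binding member of the complex, stood at 12.87, 13.33 and 13.00 on the SMA arrays and 11.12, 12.88 and 12.17 on the WT arrays. SMA replicate 1 lay just below WT replicate 2, and the difference was 1.01 (95% interval 0.24 to 1.78). Another Gemin2 probe gave -0.29. Ddx20, the helicase Gemin3, differed by 0.40, with another probe at -0.13, and Gemin4 by -0.53. Gemin7 differed by -0.13, and Gemin8 was above background on 0 arrays.

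The Sm proteins that SMN loads are encoded by Snrpb, Snrpd1, Snrpd2, Snrpd3, Snrpe, Snrpf and Snrpg. Snrpd1 stood at 7.20, 6.58 and 7.24 on the SMA arrays and 8.37, 7.06 and 7.48 on the WT arrays, a difference of -0.63, and another probe gave -0.75. Snrpg differed by -0.52, Snrpf by -0.53, Snrpd3 by -0.15, Snrpd2 by -0.13, Snrpe by 0.04 and Snrpb by 0.13. Prmt5, which methylates Sm proteins, differed by 0.12, its partners Wdr77 and Clns1a by 0.18 and 0.01, and Phax, an export adaptor of small nuclear RNA, by -0.03 (95% interval -0.33 to 0.27). Of 9 minor spliceosome genes and related transcripts, 5 were above 0 with a median of 0.07, or 0.12 without WT replicate 1. Rnpc3, a protein of the minor spliceosome, differed by 0.54, Zcrb1 by -0.16 and Tmem41b, whose homologue is a minor-intron target of SMN in Drosophila, by 0.58.

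No gene of the p53 pathway list passed. Of 24 tested, 13 were above 0, 11 were below, and the median was 0.09. Cdkn1a, the cell-cycle inhibitor p21, stood at 10.16, 10.003 and 10.45 on the SMA arrays and 11.13, 10.65 and 10.43 on the WT arrays. SMA replicate 3 and WT replicate 3 were level, and the difference was -0.53 (95% interval -0.97 to -0.08; adjusted p = 0.985). The other Cdkn1a probes gave -0.39 and -0.21. Mdm2, the ubiquitin ligase that restrains p53, stood at 10.87, 10.86 and 10.67 on the SMA arrays and 10.59, 10.81 and 10.67 on the WT arrays. Btg2, an antiproliferative gene, was higher on every SMA array, by 0.49, and the death receptor gene Tnfrsf10b differed by 0.33. Among 12 genes of intrinsic apoptosis 7 were above 0, with a median of 0.05, or -0.01 without WT replicate 1. Cycs, cytochrome c, was lower on every SMA array, by -0.39, Bid differed by -0.44 and Bcl2l11, which encodes Bim, by 0.47. Genes of dividing cells had 4 of 7 above 0 and a median of 0.17; the mitotic kinase gene Cdk1 differed by 0.56 and Plk1 by 0.87.

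Of 28 genes of neurofilaments, microtubules and axonal transport, 10 were above 0 and 18 below, with a median of -0.05, or -0.09 without WT replicate 1. None passed, and 24 intervals lay within 2-fold. Besides Nefl, described above, Tubb2b, a beta-tubulin of growing neurons, stood at 14.51, 14.51 and 14.72 on the SMA arrays and 15.06, 14.90 and 14.72 on the WT arrays. Its difference was -0.31 (95% interval -0.51 to -0.11), and all 5 other probes were below 0, at -0.51 to -0.12. Tubb2a was lower on every SMA array, by -0.13, and was picked here for that after its values were seen. Mapt, which encodes tau, differed by 0.63, with WT replicate 1 the lowest array at 7.55.

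Of 27 synaptic vesicle and SNARE genes, 10 were above 0 and 17 below, and the median was -0.05. In 4 of them, against 4.97% of all genes, every SMA array lay below every WT array. Rab3a, a GTPase of synaptic vesicles, stood at 11.94, 11.88 and 12.01 on the SMA arrays and 12.30, 12.20 and 12.08 on the WT arrays. Rph3a, the Rab3 effector rabphilin, differed by -0.62 and the vesicle protein gene Sv2a by -0.51. Syt2, a calcium sensor of fast release, was above background on no SMA array and every WT array, and was at least 1.16-fold lower. It was named after its values were seen. Its level was 4.80, 4.78 and 4.94 on the SMA arrays and 5.62, 5.07 and 5.09 on the WT arrays. The 4 adjusted p-values were all 0.985.

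Ion channels and receptors were split between both directions. Sodium channel genes had 6 of 10 above 0, and Scn3a was lower on every SMA array, by -0.40, whereas both other Scn3a probes gave 0.34. Potassium channel genes had 14 of 27 above 0 and a median of 0.01, or -0.06 without WT replicate 1. In 3 of the 27 every SMA array lay below, against 4.97% of all genes, and in 1 above, against 3.72%. Kcnk1, a leak channel, stood at 7.99, 8.07 and 7.83 on the SMA arrays and 8.78, 9.12 and 8.35 on the WT arrays, and another probe gave -0.73 beside its -0.79. Kcnh2, the channel ERG, differed by -0.94 and Kcna4 by -0.65. Kcnab2, by -0.24, and Kcnn1, by 0.36, completed the genes without overlap and were named after their values were seen. Transduction channels and receptors had 5 of 15 above 0. Trpm3, a heat-sensing channel, was higher on every SMA array, by 0.23, and Trpc6 lower on every SMA array, by -0.41; each is 1 of the 15. Of the 4 other Trpm3 probes 2 had the opposite sign. Trpc1 differed by 0.44, with its 2 other probes at -0.49 and 0.17.

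Receptors for glutamate, GABA, glycine and monoamines had 12 of 24 above 0. As a list they deviated by 0.0665, -0.00645 and 0.0461 on the SMA arrays and -0.0377, -0.0141 and -0.0543 on the WT arrays, without overlap. Of all single genes, 3.72% lay higher on every SMA array. Glra2 was given above. Drd1, a dopamine receptor, stood at 5.79, 5.78 and 6.14 on the SMA arrays and 4.66, 5.18 and 5.33 on the WT arrays, a difference of 0.85. It was above background on 3 SMA arrays and 2 WT arrays. Gabrb2, a GABA receptor subunit, was above background on no SMA array and every WT array, and was at least 1.22-fold lower. Htr3a, a serotonin-gated channel named after its values were seen, differed by -0.79. Among 13 neuropeptide genes 5 were above 0, and Pdyn, the precursor of dynorphins, stood at 4.53, 5.02 and 4.99 on the SMA arrays and 6.78, 5.27 and 6.08 on the WT arrays. Pdyn was above background on 1 SMA array and 3 WT arrays. Of 17 neurotrophin and receptor genes 7 were above 0, with Igf1 at -0.42.

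Genes of injury and stress did not pass either. Atf3, Npy and Sprr1a, which sensory neurons switch on after nerve injury, were above background on none of the 6 arrays. Of 15 injury genes tested, 7 were above 0, with a median of -0.02, or 0.02 without WT replicate 1; Stmn4 differed by 0.81 and Vgf by -0.60. Of 20 genes of the unfolded protein and integrated stress responses 8 were above 0, with a median of -0.01. In 3 of the 20, against 4.97% of all genes, every SMA array lay below every WT array. These were Atf5, Chac1 and Asns, at -0.32, -0.73 and -0.24, with another Asns probe at 0.37, and for Chac1 the values were 6.14, 6.41 and 6.48 on the SMA arrays and 7.80, 6.83 and 6.60 on the WT arrays. All 11 heat shock genes tested had intervals within 2-fold; Hsp90aa1 differed by 0.25 and Dnajb1 by -0.12. Immediate early genes had 2 of 6 above 0, with Fosl2 at -0.35, Egr2 at 0.23 and Egr3 at 0.30.

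Interferon response genes had 6 of 10 above 0 and a median of 0.04. Irf9, a transcription factor of the interferon response, stood at 7.10, 6.41 and 6.40 on the SMA arrays and 8.03, 7.52 and 7.51 on the WT arrays, a difference of -1.05, with another probe at -0.17. Ifi27 differed by 0.20 and Ifit3 by -0.57. Genes of complement and MHC class I had 3 of 9 above 0; Tapbp, which loads peptides on MHC class I, differed by 0.28, Cd55 by 0.32 and H2-K1 by -0.28.

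Oxidative phosphorylation genes had 9 of 38 above 0 and a median of -0.11, or -0.05 without WT replicate 1, and 32 intervals lay within 2-fold. Uqcrc2, a core subunit of complex III, stood at 9.89, 10.02 and 10.05 on the SMA arrays and 10.67, 10.42 and 10.08 on the WT arrays. Ribosomal protein genes had 5 of 18 above 0 and a median of -0.13, or -0.08 without WT replicate 1. Rpl27 stood at 9.62, 9.78 and 10.34 on the SMA arrays and 11.50, 10.32 and 10.23 on the WT arrays, a difference of -0.77 in which WT replicate 1 was again the highest array. Cholesterol synthesis genes had 6 of 15 above 0, with Mvd at -0.64, Ebp at -0.37 and Dhcr7 at -0.34. Replication-dependent histone genes, near-identical copies that a probe may not tell apart, had 15 of 30 above 0 and a median of -0.00, and the median was -0.39 without WT replicate 1. H2bc4 differed by 0.42, H2bc12 by -0.77 and H4c8 by -0.50.

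Of genes known as modifiers of SMA, linked to ubiquitin or to related motor neuron diseases, 15 of 24 were above 0, with a median of 0.07 and 21 intervals within 2-fold. Coro1c, an actin-binding protein that modifies SMA in animal models, stood at 11.85, 11.85 and 11.84 on the SMA arrays and 12.23, 12.04 and 11.92 on the WT arrays. Chp1, a calcineurin-like calcium sensor, differed by 0.83, with WT replicate 1 lowest at 5.20. Hox genes, which mark the position of a ganglion along the trunk, had 12 of 20 above 0 and a median of 0.07, or 0.04 without WT replicate 1. Hoxa11, a posterior Hox gene, stood at 5.80, 5.66 and 6.96 on the SMA arrays and 4.52, 5.14 and 5.37 on the WT arrays. It was above background on 3 SMA arrays and 2 WT arrays. Hoxa9 differed by 0.69 and Hoxb9 by -0.41. The sources used here do not give the spinal levels of the ganglia.

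Axon guidance genes had 18 of 33 above 0 and a median of 0.03, or -0.01 without WT replicate 1; the ephrin gene Efnb3 differed by -0.50, and the ephrin receptor genes Epha7 and Epha3 by 0.84 and 0.45. All 3 other Epha7 probes lay below 0. Extracellular matrix genes had 10 of 28 above 0 and a median of -0.14, or -0.08 without WT replicate 1. As a list they deviated by -0.128, -0.14 and 0.0292 on the SMA arrays and 0.172, 0.0361 and 0.03 on the WT arrays. Matn2, a matrilin made by Schwann cells, stood at 11.03, 10.89 and 10.42 on the SMA arrays and 10.26, 10.23 and 10.38 on the WT arrays, and its 2 other probes gave -0.18 and 0.02. Col6a2 differed by -0.84 and Col5a1 by 0.44. In 3 matrix genes every SMA array lay below every WT array, against 4.97% of all genes: Col6a2, with Col8a1 at -0.60 and Col4a2 at -0.54, both named after their values were seen.

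**Figure D5:**
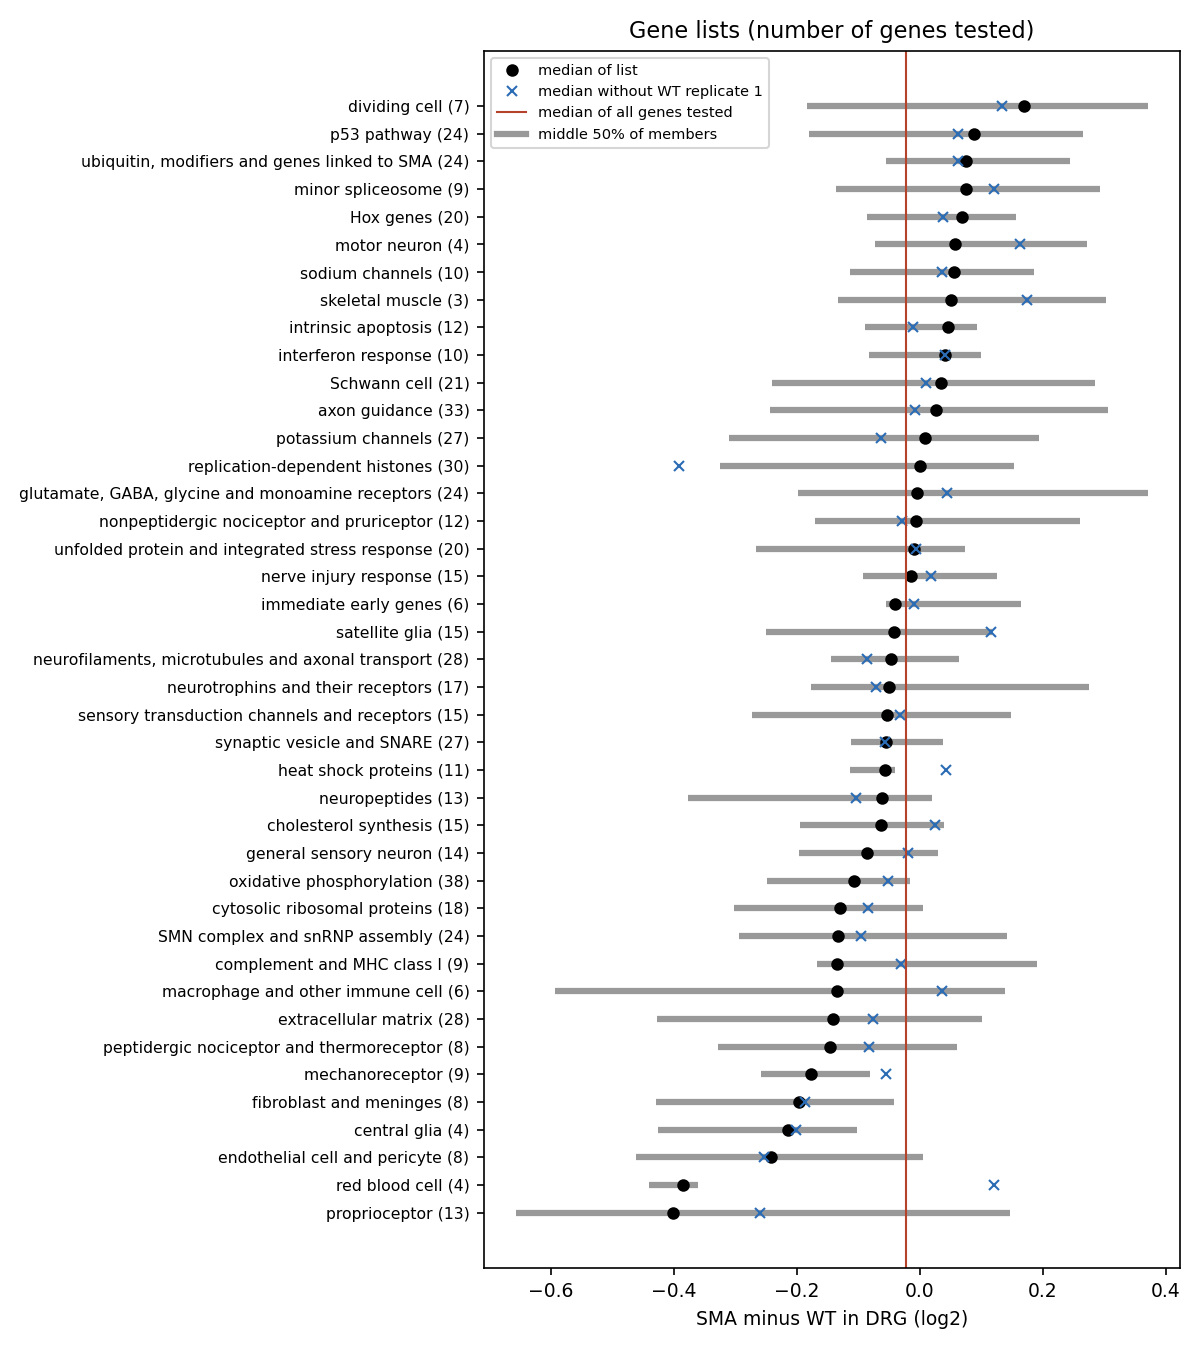
Each row is 1 of the 41 lists, with the number of genes tested in brackets; the black point is the median log2 difference, SMA minus WT, the grey bar the middle 50% of its members, and the blue cross the median without WT replicate 1. The red line is the median of all genes, -0.02. Proprioceptor genes lie lowest at -0.40, close to red blood cell genes at -0.38, which move to 0.12 without WT replicate 1.

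The sign of many small differences above depended on 1 choice. Without WT replicate 1 it turned for P2rx3 to -0.03, Sparcl1 to 0.03, Heg1 to -0.79, Snrpb to -0.13 and Pou4f1 to 0.16, and also for Slc17a6, Avil, Dnajb1, Ret, Scn11a, Mrgprd and Snrpe. Medians of the lists given only as counts moved too: with and without that array they were -0.06 and 0.04 for heat shock, -0.06 and 0.02 for cholesterol synthesis, -0.13 and -0.03 for complement and MHC class I, and -0.04 and -0.01 for immediate early genes. They were -0.06 and -0.10 for neuropeptides, 0.06 and 0.04 for sodium channels, -0.05 and -0.03 for transduction genes, and -0.01 and 0.04 for the receptors of transmitters. For the motor neuron and muscle lists they were 0.06 and 0.16, and 0.05 and 0.17. With median scaling, which moved the median of all genes to -0.22, it turned for Trpm3, Mbp, Scn10a, Wdr77, Egr2, Timp3, Mdm2, Chodl, Prmt5, Snrpb, Scn11a, Stmn2, Snrpe, Gap43, Cacna1h and Clns1a. Besides the genes whose other probes are given above, at least 1 other probe had the opposite sign for Gm12592, Tapbp, Ngfr, Cycs, Mapt, Hsp90aa1, Wdr77, Mbp, Prph, H2-K1, Mdm2, Ret, Prmt5, Snrpb, Ntrk2, Heg1 and Cacna1h. None of these genes passed under any choice.

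Genes above background in 1 group and not in the other were few. There were 18 genes above background on all SMA arrays and no WT array. Among the 5 with the highest SMA level, 4930578I06Rik and Fancd2os were given above, Pias3, a SUMO ligase, was at least 1.60-fold higher, Gm12592 at least 1.5-fold and the protocadherin gene Pcdhga4 at least 1.42-fold. There were 38 genes above background on all WT arrays and no SMA array. After Smn1 the highest in WT were Cep152, Chst12, a chondroitin sulfotransferase at least 1.59-fold lower, Camk1d, a calcium-dependent kinase at least 1.49-fold lower, and Nme4, a mitochondrial nucleotide kinase at least 1.49-fold lower. Smn1 stood alone in size: the bounds of the other 37 were 1.06 to 1.59-fold.

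The genotype difference in DRG was also set against the mean of the genotype differences in the medial motor column (MMC), the lateral motor column (LMC) and the raphe, in a fit over all 24 arrays. Of 9964 genes, 0 (0%) passed that test, the lowest adjusted p was 0.575, and 288 had an unadjusted p under 0.05 (limma). In MMC, 61 of these genes (0.612%) passed in SMA against WT. The 60 besides Smn1, which were chosen on their MMC values, had a median absolute difference of 0.209 in DRG against 1.93 in MMC, had the same sign in DRG in 22 and passed in DRG in 0. In DRG, 4 of the 60 had an unadjusted p under 0.05 (limma), against 335 of all 9964 genes (3.36%). Of 8 such genes of the raphe and 1 of LMC, 0 passed in DRG.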

How the data were processed

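The 6 DRG arrays were analysed from the signal intensity and detection p-value of each probe that the authors deposited. GenomeStudio is named in the submitters' processing notes, without a version. Negative intensities per the file headers' signal columns show that a background had been subtracted. The authors also deposited normalized log2 values, by a method that the sources used here do not state; their medians were 7.547 to 7.557, and their order matched the signals on each array.

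Signals of all 24 arrays were corrected with limma 3.58.1 in R 4.3.3 (normexp with detection p-values, offset 16), quantile normalized and put on a log2 scale. Of 45281 probes, 34885 had 1 gene symbol in the platform annotation, 18 several and 10378 none; the last 2 kinds were not used, among them 3171 detected probes. Each gene was represented by its probe with the highest mean over the 6 arrays. limma was fitted to these 6 arrays (4 residual degrees of freedom, 5.94 from the prior) with a mean-variance trend and Benjamini-Hochberg adjustment over 9964 genes, two-sided. All adjusted p-values and intervals are from limma; the precision is limited by 3 arrays a group. A gene not above background on any array of a group has only a bound there. The fit was also run on simulated independent values that held no array that stood apart and no effect of position, so that run does not bear on those limits.

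Named genes are those that passed, the 10 per direction of smallest p without overlap, the 3 of smallest p of each list, a fixed set, all members of the sensory neuron and SMN lists, 5 per direction of genes above background in 1 group, and list members without overlap named after their values were seen. The comparison, its members and the lists were chosen with earlier results of these data known. Alternatives covered the arrays fitted, normalization, offset, filter, probe, prior variance, array weights, replicate block and each array left out.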

Additional observations from a re-analysis of the deposited data

How the results depend on the processing

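Smn1 passed in each of the 19 alternatives that tested it. With detection required on all 6 arrays Smn1 is not tested, by construction, and 0 genes passed, 0 of them lower, with 203 at an unadjusted p under 0.05 (limma). With array weights 2 genes passed, 1 of them higher (Glra2), and 1258 had an unadjusted p under 0.05. With the array left out in turn, 1 gene passed each time. Deviations of same-numbered SMA and WT arrays correlated at 0.0911, -0.0135 and 0.343, and those of unlike-numbered arrays at -0.261 to 0.2. These values do not settle whether replicate numbers pair the arrays. With the replicate block 1 gene passed and 384 had an unadjusted p under 0.05 (limma). With all 24 arrays in the fit that count was 143, and with median scaling, which moved the median of all genes to -0.22, it was 832, each against 335. The test against the other tissues gave 0 genes in every alternative run. Genes above background in SMA DRG alone numbered 11 with detection p under 0.01 and 39 to 70 with 1 array left out; those in WT DRG alone numbered 62 to 120 with 1 array left out, since fewer arrays then have to meet the rule. For the 213 named genes, 117 of 4180 values changed sign, in 61 genes, and Glra2 alone passed besides Smn1. Of the 41 list medians, 31 changed sign at least once, and those that did not stayed below 0. Among these were proprioceptors (-0.57 to -0.12), general sensory neurons (-0.25 to -0.02) and peptidergic neurons (-0.32 to -0.01). The others were fibroblasts, vessels, extracellular matrix, ribosomal proteins, oxidative phosphorylation, synaptic vesicles and the SMN complex. The causes of the sign changes were not tested.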
